A study of Mus musculus with 21 samples.

Results

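The ABC transporters that carry drugs, conjugates and lipids out of cells were followed across 3 mouse cell lines in which the long noncoding RNA Esrp2-as had been lowered or raised. The 10 genes were chosen by symbol: the P-glycoprotein genes Abcb1a and Abcb1b with their close relative Abcb4, the multidrug resistance protein genes Abcc1 to Abcc5, Abcg2, and the cholesterol exporter Abca1. All 10 were among the 48440 genes of the deposited table, and all 10 passed the filter on low counts. The choice rested on the knockdown comparison in M6 cells, in which Abcb1a and Abcb1b were higher, so the values of that comparison are given here as a description with no test.

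The perturbed groups were M6 cells with Esrp2-as knocked down by LNA antisense gapmers (2 replicates), M27H4 cells overexpressing Esrp2-as (3 replicates) and 3T3-L1 cells overexpressing it (2 replicates). Each was set against an equal number of replicates of its own line labelled as empty vector controls; for M6 too the labels name a vector and no control gapmer. Mammary gland tumours of C3(1) SV40 TAg mice gave rise to both M6 and M27H4, so the oncogenic transgene of that strain is common to their perturbed and control groups. 3T3-L1 is a preadipocyte line, and it was grown here in the same medium as the tumour lines. The labels describe replicates as biological without saying whether they came from separate cultures, so p-values measure only the spread between these samples.

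Ribosomal RNA was removed from total RNA before sequencing, and the 14 replicates held 34892461 to 328493417 counts. Levels are CPM values, counts scaled to the effective size of each library. Esrp2-as itself was at 0.527 and 0.851 CPM in M6 knockdown cells, against 2.96 and 2.42 CPM in M6 controls. It was at 15.9 to 65.9 CPM in M27H4 overexpressing cells against 0.731 to 1.25 CPM in their controls, and at 45.8 and 35.5 CPM in 3T3-L1 overexpressing cells against 0.25 and 0.355 CPM in theirs. The 12 epithelial markers summed to 4380 to 5890 CPM in M6 knockdown cells and 4100 to 5570 CPM in M6 controls, to 149 to 292 CPM in all M27H4 replicates, and to 24.5 to 33 CPM in all 3T3-L1 replicates. The 12 preadipocyte and fibroblast markers summed to 6460 to 8120 CPM in 3T3-L1 replicates and to 871 to 1180 CPM in M27H4 replicates, against 76.4 to 98 CPM in M6 knockdown cells and 92.3 to 105 CPM in M6 controls. Most of the M27H4 sum was Pdgfra, at 673 to 881 CPM in overexpressing cells and 770 to 929 CPM in controls. Pdgfra was higher in every M27H4 replicate than in every 3T3-L1 replicate, and Col1a1, Col1a2 and Col3a1 were lower. Of the 12 epithelial markers, 2 had replicate ranges apart and higher in M6 knockdown cells, Krt7 (630 to 862 CPM against 375 to 531 CPM in M6 controls) and Cldn4 (473 to 614 against 267 to 459 CPM). Another 3 were apart and lower, Epcam (455 to 602 against 624 to 837 CPM), Esrp1 (95.6 to 96.1 against 106 to 122 CPM) and Elf3 (15.6 to 18.3 against 18.9 to 19.8 CPM), and their part in the results was not tested. Over all tested genes, 12.6% were apart and higher in M6 knockdown cells and 13.8% apart and lower. Of the mammary tumour lines, M27H4 held far less of the epithelial markers than M6. Endothelial and hepatocyte markers, from cell types in which several of these transporters are abundant, were at low levels: Alb was at 0 in both M6 groups, and the 8 endothelial markers summed to at most 0.5 CPM in M6 and 32.2 CPM in M27H4. Nearly all of the M27H4 sum was Kdr, at 21.2 to 25.9 CPM in overexpressing cells and 22 to 32.1 CPM in controls. Immune markers summed to at most 13.7 CPM and adipocyte markers to at most 4.52 CPM in any replicate. The 6 myoepithelial markers summed to 819 to 1590 CPM in M6 knockdown cells and 1350 to 2190 CPM in M6 controls, ranges that overlap, and their part in the results was not tested. Of these 6, Krt5 and Myh11 were apart and higher in M6 knockdown cells. In the remaining lists Dcn, Kdr and Ptprc were apart and higher, and Pdgfra and Pecam1 apart and lower. Several of these were near the floor: Myh11, Kdr, Ptprc and Pecam1 were at most at 0.89 CPM in any M6 replicate, and Dcn at most at 2 CPM.

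ABC transporters bind and hydrolyse ATP on the inside of the membrane and use that energy to move a substrate across it. P-glycoprotein accepts a wide range of bulky, mostly hydrophobic drugs, and its appearance in tumour cells is a classical route to resistance against several drugs at once. Rodents carry a pair of genes, Abcb1a and Abcb1b, for the role that ABCB1 alone has in humans. The multidrug resistance proteins export organic anions, many of them conjugates made by glutathione transferases and glucuronosyltransferases.

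The windows upstream of Abcb1a and Abcb1b are shown because both genes were higher in M6 knockdown cells while their ratio differed between the lines. They are the 250 bases before each RefSeq start on GRCm38.p6, plus strand, 5′ to 3′, at chr5:8566841-8567090 for Abcb1a and chr5:8797897-8798146 for Abcb1b; capitals mark the letters CCAAT or GGGCGG on either strand.
Abcb1a: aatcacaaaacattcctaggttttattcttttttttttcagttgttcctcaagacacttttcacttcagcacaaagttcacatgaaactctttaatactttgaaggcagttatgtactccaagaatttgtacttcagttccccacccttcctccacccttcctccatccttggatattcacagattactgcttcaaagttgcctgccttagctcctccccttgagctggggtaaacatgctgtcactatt
Abcb1b: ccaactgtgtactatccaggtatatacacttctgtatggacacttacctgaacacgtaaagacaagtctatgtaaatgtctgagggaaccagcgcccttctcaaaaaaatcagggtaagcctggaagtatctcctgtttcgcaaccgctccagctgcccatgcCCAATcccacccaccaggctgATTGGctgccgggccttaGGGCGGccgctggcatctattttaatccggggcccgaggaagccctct
The Abcb1b window held CCAAT on both strands, at 2 places, and GGGCGG at 1 place, and the Abcb1a window held neither. Of 32851 mouse promoter windows of the same length, 33.8% held CCAAT and 32.7% held GGGCGG. Neither window held TATAAA (12.4% of windows), TGANTCA (6.75%) or TGACNNNGC (10.2%), all searched on both strands. The Abcb1a window was 40.4% G and C and the Abcb1b window 52.8%, beside a median of 52.4% over all windows. The RefSeq start of Abcb1a lies 92986 bases before the start of the gene in GENCODE M21, whereas both annotations give the same start for Abcb1b, so the Abcb1a window need not be the promoter used in these cells.

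The P-glycoprotein genes lie next to each other on chromosome 5 of GRCm38, all on the plus strand: Abcb1a (ENSMUSG00000040584) at 8660077 to 8748575, Abcb1b (ENSMUSG00000028970) at 8798147 to 8866315 and Abcb4 at 8893717 to 8959231. In M6 cells Abcb1a was at 39.5 and 26.6 CPM in the knockdown replicates and at 9.48 and 6.31 CPM in the controls. Both knockdown replicates lay above both controls, and the fitted difference was 4.19-fold. Abcb1b was at 69.7 and 66.3 CPM in knockdown replicates and at 14.9 and 15.5 CPM in controls, a fitted difference of 4.48-fold. In bulk RNA, more cells that express a gene and more RNA per cell cannot be told apart. The Abcb1b replicates were close together on each side, and the groups were far apart. Between replicates of the same number the knockdown value was 4.16 and 4.22 times the control for Abcb1a, and 4.68 and 4.28 times for Abcb1b. These are the values by which the genes were chosen, and no test is attached to them.

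Replicate 2 of both M6 groups was deposited as several columns. Column names end in an LR code, a number whose meaning the labels do not give; columns are grouped by it here, without knowing whether it marks a sequencing lane, a run or a library preparation. With a single LR code, carried in the count tables by M6 columns alone (the all-M6 code), Abcb1a was at 22.4 and 42.3 CPM of the column total in knockdown columns, against 6.76 and 10.3 CPM in control columns. Abcb1b was at 56.3 and 74.8 CPM in knockdown columns with that code, against 16.1 and 16.4 CPM in control columns. The fitted differences within the code were 3.84-fold for Abcb1a and 4.07-fold for Abcb1b. Other columns of replicate 2 carry LR codes that the M6 groups do not share. They held 108581385 counts in knockdown cells and 123438559 and 138313667 in controls. Their names also differ from the all-M6 columns in the AS number. In the summed M6 values, knockdown and LR code therefore cannot be fully told apart. Abcc1 of control replicate 2 was at 153 CPM of the column total with the all-M6 code, and at 120 and 122 CPM with the others.

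Abcb1a and Abcb1b share stretches of sequence, and reads from these stretches cannot be assigned with certainty. Of the 50-base windows of the longest Abcb1a transcript, 15.5% also occurred in an Abcb1b transcript, and 18.0% of those of Abcb1b occurred in Abcb1a. Summing the counts of the pair avoids the question of assignment. The sum averaged 101 ± 11.4 CPM in M6 knockdown cells and 23.1 ± 1.84 CPM in M6 controls (SD, n = 2 each), a fitted difference of 4.38-fold. Antisense and embedded genes within Abcb1a and Abcb1b were at most at 0.396 CPM in any replicate, the highest being Gm5106, which overlaps the first 377 bases of Abcb1b on the other strand.

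**Figure D1:**
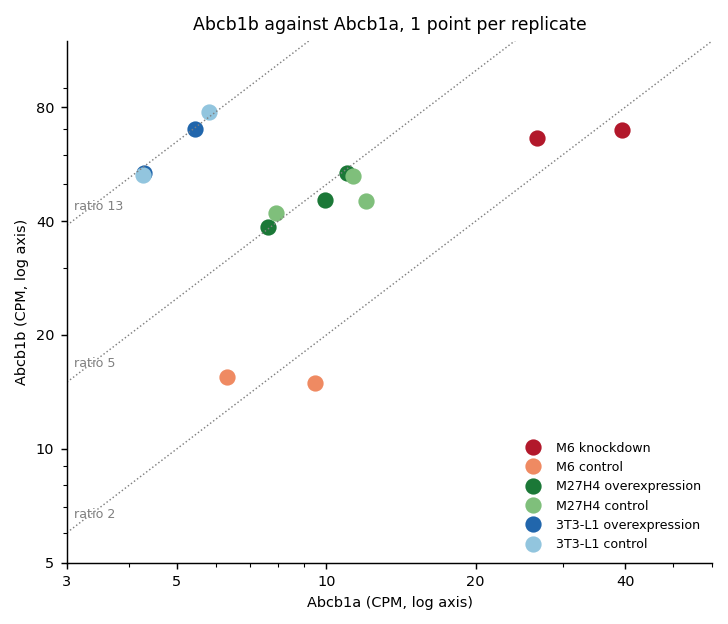
Abcb1b level against Abcb1a level, both in CPM on log axes, with 1 point per replicate of the 6 groups and dotted lines of equal ratio. The M6 knockdown points sit at about the same Abcb1b to Abcb1a ratio as the M6 controls (2.13 and 2.01), the M27H4 points at a higher ratio and the 3T3-L1 points at the highest, 12.7 and 12.9.

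The balance between Abcb1a and Abcb1b followed the cell line. Abcb1b counts were 2.13 ± 0.509 times those of Abcb1a in M6 knockdown cells and 2.01 ± 0.622 times in M6 controls (SD, n = 2 each). The ratio was 4.83 ± 0.25 in M27H4 overexpressing cells and 4.57 ± 0.768 in M27H4 controls (n = 3 each). In 3T3-L1 it was 12.7 ± 0.283 in overexpressing cells and 12.9 ± 0.707 in controls (n = 2 each). Per kilobase of exon the mean ratios were 1.46 and 1.38 in M6 knockdown and control cells, 3.31 and 3.14 in M27H4 overexpressing and control cells, and 8.71 and 8.85 in the 3T3-L1 groups. With each gene's length weighted by the transcripts counted they were 2.25 and 2.26 in M6, 5.64 and 5.09 in M27H4, and 13 and 13.4 in 3T3-L1, again with the perturbed group first. The replicates of the 3 lines did not overlap in the ratio, while within each line the perturbed and control groups lay within their spread of each other.

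Overexpression of Esrp2-as was not accompanied by a called difference in either gene. In M27H4, Abcb1a was at 11, 9.93 and 7.61 CPM in overexpressing cells and at 12, 11.3 and 7.91 CPM in controls. The groups overlapped, with a log2 difference of −0.13 ± 0.25 (SE) and a 95% interval of −0.68 to 0.42. Abcb1b was at 53.5, 45.5 and 38.7 CPM in overexpressing M27H4 cells and at 45.3, 52.5 and 41.9 CPM in controls, with a log2 difference of −0.02 and an interval of −0.42 to 0.38. In 3T3-L1 the log2 differences were −0.05 (interval −0.73 to 0.62) for Abcb1a and −0.08 (interval −0.56 to 0.41) for Abcb1b. In edgeR's quasi-likelihood test with Benjamini-Hochberg adjustment all of these had an adjusted p of 1. Between M27H4 replicates of the same number, overexpressing cells had 0.919, 0.879 and 0.962 times the control level of Abcb1a and 1.18, 0.866 and 0.923 times that of Abcb1b. With these pairs as a block the Abcb1a difference was −0.12 (edgeR adjusted p = 0.991) and the Abcb1b difference −0.03 (adjusted p = 1).

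Between the unperturbed lines, Abcb1a was lower in 3T3-L1 than in M27H4. It was at 5.81 and 4.27 CPM in 3T3-L1 controls and at 12, 11.3 and 7.91 CPM in M27H4 controls, a log2 difference of −1.04 ± 0.29 (SE, edgeR adjusted p = 0.013). Without 3T3-L1 control replicate 2 the call was lost (adjusted p = 0.165). Abcb1b, at 77.6 and 52.9 CPM in 3T3-L1 controls, lay above all 3 M27H4 controls, but the log2 difference of 0.49 (interval 0.04 to 0.93) had an edgeR adjusted p of 0.0807. The sum of both genes differed by 0.30 on the log2 scale between these lines, with an interval of −0.15 to 0.76. As a description, Abcb1b was 3.07-fold higher in M27H4 controls and 4.3-fold higher in 3T3-L1 controls than in M6 controls, which had 14.9 and 15.5 CPM. The knockdown cells of M6, at 69.7 and 66.3 CPM of Abcb1b, lay within the range of the 3T3-L1 controls, whereas their Abcb1a level was above every replicate of the other lines.

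Annotated transcripts of Abcb1b were dominated by the 4306-base form in every group, with mean shares of 91.2 to 95.6% of the gene's transcript counts. Abcb1a was less uniform. The 4997-base form took 80.2 ± 9.95% in M6 knockdown cells and 92.3 ± 3.16% in M6 controls (SD, n = 2 each), and a 2705-base form took 19.6 ± 9.86% in knockdown cells and 6.84 ± 3.5% in controls. The share of the 2705-base form was 12.6 and 26.6% in the knockdown replicates and 4.37 and 9.31% in the controls, so the groups did not overlap, but they lay as near as 12.6 and 9.31%. In 3T3-L1 this form took 26.9 ± 5.83% in overexpressing cells and 26.3 ± 10.3% in controls. Transcript counts are estimates made by the authors' assembler from shared exons, and these shares were not tested.

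Abcb4, which moves phosphatidylcholine into bile in hepatocytes, was close to absent. It was at 0.211 and 0.61 CPM (10 and 109 counts) in M6 knockdown cells and at 0.124 and 0.127 CPM (6 and 39 counts) in M6 controls. The knockdown values lay above the controls, with 3.36-fold as the fitted difference, but replicates of the same number differed by 1.7 and 4.82 times. In the other lines Abcb4 was between 0.0825 and 0.427 CPM. A pseudogene inside Abcb4 on the same strand, Gm17936, was at 0.273 to 0.844 CPM, a range that overlaps Abcb4's own, so reads near it are uncertain. Of the 50-base windows of Abcb4, 3.15% also occurred in Abcb1a and 1.64% in Abcb1b.

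**Figure D2:**
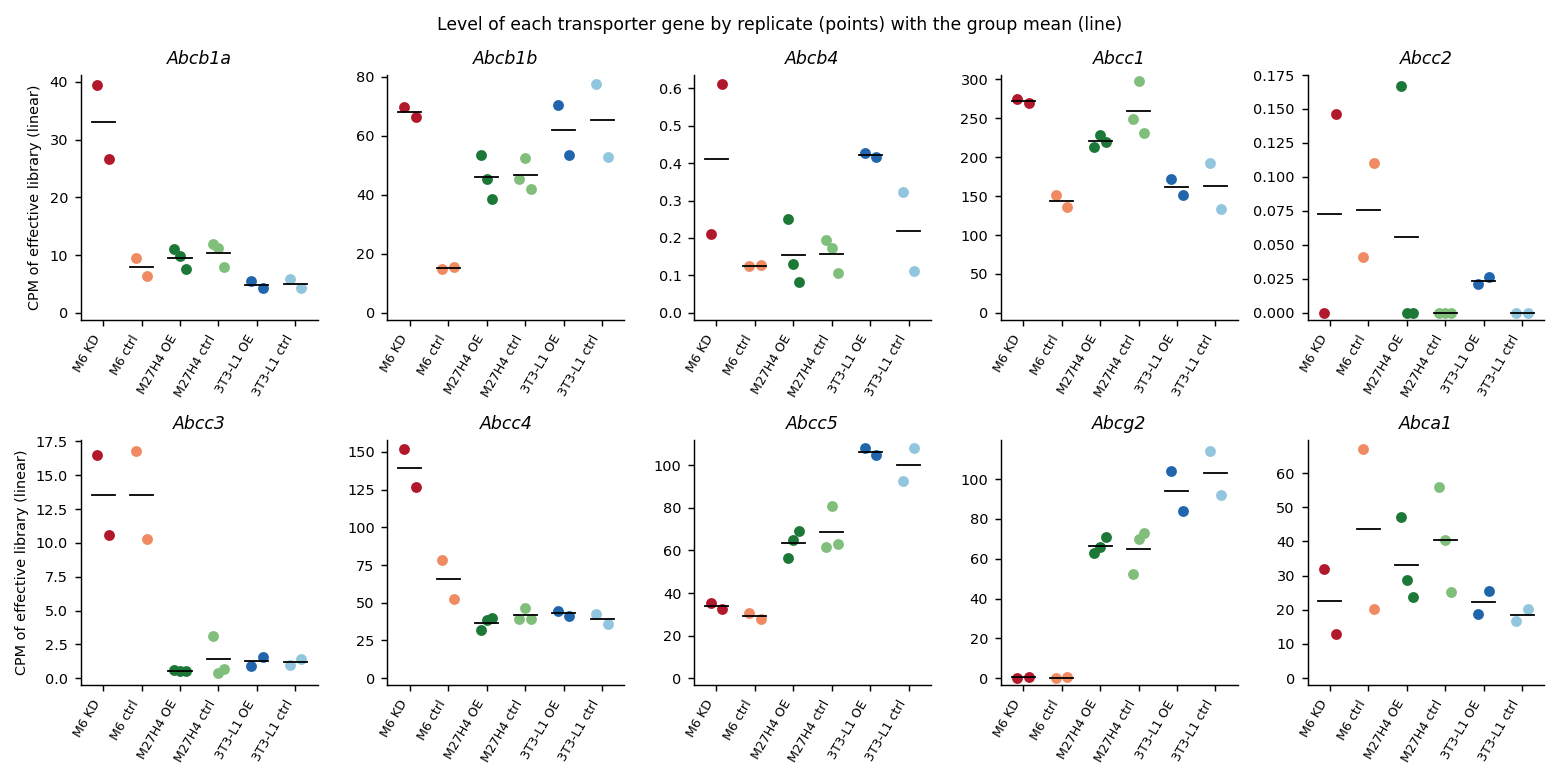
CPM of each of the 10 genes on linear axes, with 1 point per replicate and a line at the group mean; KD is Esrp2-as knockdown, OE overexpression and ctrl the empty vector control. Abcb1a and Abcb1b stand out in M6 knockdown cells, Abcc3 is seen mainly in M6, and Abcg2 is near 0 in M6 and at 52.2 to 114 CPM in the other lines.

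Among the multidrug resistance proteins, Abcc1 and Abcc4 were also higher in the M6 knockdown replicates than in the controls. Abcc1 (chr16:14361558-14475737, plus strand) exports glutathione conjugates and cysteinyl leukotrienes. It was at 275 and 270 CPM in knockdown cells and at 151 and 136 CPM in controls, a fitted difference of 1.9-fold, and 1.69-fold within the all-M6 code. Abcc4 (chr14:118482692-118706219, minus strand) exports cyclic nucleotides and prostaglandins. It was at 152 and 127 CPM in knockdown cells and at 78.6 and 52.5 CPM in controls, 2.12-fold in the fit and 1.94-fold within that code. Neither gene's replicates overlapped between the groups.

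Abcc3 and Abcc5 showed little or no difference in M6. Abcc3, which exports glucuronides and bile salts at the basolateral membrane of epithelia, was at 16.5 and 10.6 CPM in knockdown cells and at 16.8 and 10.3 CPM in controls, a fold of 1.0. Abcc5, an exporter of cyclic nucleotides and nucleotide analogues, was at 35.3 and 32.7 CPM in knockdown cells and at 30.6 and 27.8 CPM in controls. Its fitted difference was 1.16-fold, and within the all-M6 code the columns overlapped, at 27 and 37.8 CPM in knockdown cells and 29.5 and 33.2 CPM in controls. Abcc2, the canalicular exporter of bilirubin glucuronides, was at 0 and 26 counts in knockdown replicates, 2 and 34 counts in controls, and at 0 to 6 counts in every other replicate, and no fold is given for it.

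Counted over all 10 genes, 6 were higher in both M6 knockdown replicates than in both controls, and none was lower; 12.6% of all 21237 tested genes were higher in that way and 13.8% lower. The fit called 29 of the 21237 genes, or 0.137%. The median log2 difference was 0.57 over the 10 genes, Abcc2 and Abcg2 at or near 0 counts included, beside −0.03 over all genes tested. Since this comparison chose the genes, nothing is read from these counts.

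With Esrp2-as overexpressed, 0 of the 10 genes were called in either line by edgeR or DESeq2, and 0 had an unadjusted p under 0.05. The background was 0.00942% of genes called in M27H4 (2 of 21237, or 1 with the replicate pairs as a block; DESeq2 called 6 and an unadjusted p under 0.05 was found for 358) and 0.00471% in 3T3-L1 (1 of 21237; 12 by DESeq2 and 201 unadjusted). Abcc1 was at 213, 228 and 220 CPM in overexpressing M27H4 cells and at 249, 298 and 231 CPM in controls. The ranges did not overlap, as for 2.42% of all genes in that direction, and the log2 difference was −0.24 with an interval of −0.58 to 0.11. Of the 9 genes other than Abcc2, 3 were lower in all 3 same-numbered M27H4 pairs, beside 11.7% of all genes. They were Abcb1a, Abcc1 (0.855, 0.766 and 0.95 times the control) and Abca1 (0.844, 0.71 and 0.941 times), and with the pairs as a block Abcc1 and Abca1 each had an edgeR adjusted p of 0.989. Abcc3 had the lowest estimate in M27H4, −1.33 on the log2 scale (unadjusted p = 0.0549 and adjusted p = 1 in edgeR). It rested on control replicate 1, at 3.1 CPM beside 0.404 and 0.644 CPM in the other controls and 0.495 to 0.639 CPM in overexpressing cells, and was 0.04 without that replicate. Leaving out Abcc2, the estimates ran from −1.33 to 0.03 in M27H4 and from −0.13 to 0.93 in 3T3-L1, the highest being Abcb4. Abcb4 was at 0.427 and 0.417 CPM in overexpressing 3T3-L1 cells and at 0.323 and 0.113 CPM in controls, and its interval ran from −0.51 to 2.37. Like Abcc2, with 5 and 3 counts against 0 in both controls, it had ranges apart in the higher direction, as had 12.1% of all genes. The difference between the overexpression effects of the lines was called for 0 of 10 genes by edgeR and by DESeq2, with 0 unadjusted p under 0.05, beside 1 of 21237 overall (0.00471%; 11 by DESeq2 and 320 with an unadjusted p under 0.05).

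**Figure D3:**
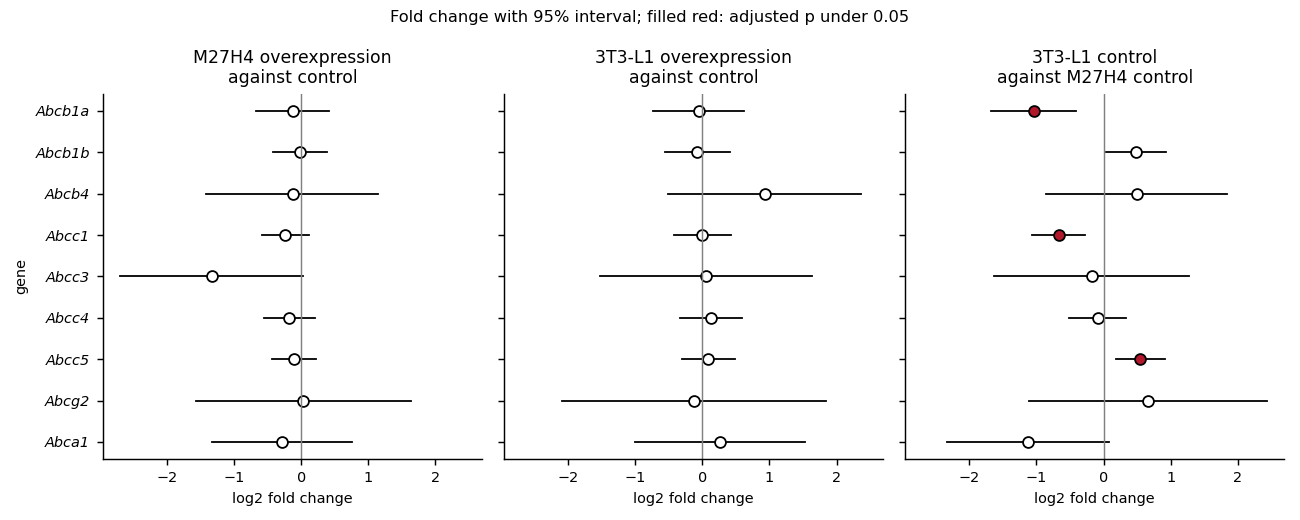
Log2 fold change (point) with its 95% interval (line) for 9 genes in both overexpression comparisons and between the 3T3-L1 and M27H4 controls; red points passed an adjusted p under 0.05. Every overexpression interval spans 0, and Abcb1a, Abcc1 and Abcc5 pass between the lines; Abcc2 is left out because it was at or near 0 counts.

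Some of the transporter genes differed in RNA level between the control lines. The counts called are given beside the share of all genes, and fewer were called with the replicate number as a block. Of the 8 genes other than Abcb1a and Abcb1b, 5 were called between M27H4 and M6 controls (30.2% of all genes called) and 4 between 3T3-L1 and M6 controls (39.4%). Between 3T3-L1 and M27H4 controls 3 of 10 were called (36.6%). The comparisons share control groups and are given side by side. All 3 lines share 2 LR codes, and within them each line is represented by 1 control replicate, replicate 2 of M27H4, replicate 1 of 3T3-L1 and replicate 2 of M6, so values within the shared codes carry no test.

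Abcc5 (chr16:20331303-20426394, minus strand) was at 61.6 to 81.1 CPM in M27H4 controls and at 30.6 and 27.8 CPM in M6 controls, a log2 difference of 1.23 ± 0.18 (SE, edgeR adjusted p = 1.29e-04). It was at 92.5 and 108 CPM in 3T3-L1 controls, 1.78 ± 0.19 above M6 on the log2 scale (adjusted p = 8.26e-06). The groups did not overlap, and both differences were called in all 11 and all 10 alternatives that gave a test. The difference of 0.55 between 3T3-L1 and M27H4 (edgeR adjusted p = 0.021) was lost without 3T3-L1 control replicate 2 (0.161) and without M27H4 control replicate 1 (0.0637) or 3 (0.0706), and it was 0.21 within the shared codes. Within those codes Abcc5 was 1.57 higher in M27H4 and 1.78 higher in 3T3-L1 than in M6 on the log2 scale.

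Abcc1 was higher in M27H4 controls than in M6 controls by 0.85 ± 0.19 on the log2 scale (edgeR adjusted p = 0.00312), and by 1.19 within the shared codes. In 3T3-L1 controls it was at 192 and 134 CPM and in M27H4 controls at 249, 298 and 231 CPM, a log2 difference of −0.67 ± 0.18 (edgeR adjusted p = 0.0113). That call was lost without 3T3-L1 control replicate 2 (adjusted p = 0.196), and the difference within the shared codes was −0.62. Between 3T3-L1 and M6 controls the difference of 0.18 was not called (interval −0.25 to 0.61).

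Abcc3 (chr11:94343295-94392997, minus strand) was at 3.1, 0.404 and 0.644 CPM in M27H4 controls and at 0.974 and 1.42 CPM in 3T3-L1 controls, against 16.8 and 10.3 CPM in M6 controls. The log2 differences from M6 were −3.32 ± 0.67 in M27H4 (edgeR adjusted p = 0.00228) and −3.5 ± 0.79 in 3T3-L1 (0.00354), and within the shared codes they were −4.69 and −3.4. With only the compared groups in the fit, the M27H4 difference had an edgeR adjusted p of 0.0589, and with the replicate number as a block 0.051. What little Abcc3 was counted in 3T3-L1 was assigned mostly to a 567-base transcript, with 89.8 ± 8.63% of transcript counts in overexpressing cells and 89.4 ± 5.09% in controls. In M6 this transcript took 3.63 ± 4.77% in knockdown cells and 0.25 ± 0.00474% in controls, and transcripts of 4999 and 5005 bases took most of the rest.

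Abcc4 was at 39 to 46.6 CPM in M27H4 controls and at 42.6 and 36 CPM in 3T3-L1 controls, below the 78.6 and 52.5 CPM of M6 controls. The log2 differences were −0.66 ± 0.19 (edgeR adjusted p = 0.0206) and −0.74 ± 0.22 (0.0154). They rested on M6 control replicate 1: without it the adjusted p was 0.303 and 0.204, and within the shared codes, where M6 is represented by replicate 2 alone, the differences were −0.12 and −0.23. The M27H4 call was also lost without M27H4 control replicate 1 (0.0549) or 3 (0.0648) and the 3T3-L1 call without 3T3-L1 control replicate 2 (0.123), and with only the compared groups fitted they were at 0.0777 and 0.0934.

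Abcg2 (chr6:58584523-58695676, plus strand), which works as a dimer, exports urate and many drugs and serves as a marker of side population stem cells, separated M6 from the other lines. It was at 62.7, 65.9 and 70.7 CPM in M27H4 overexpressing cells and 52.2, 69.8 and 72.7 CPM in their controls. In 3T3-L1 it was at 104 and 84.1 CPM in overexpressing cells and 114 and 91.8 CPM in controls. In M6 knockdown cells it was at 0 and 0.672 CPM and in M6 controls at 0 and 0.558 CPM. edgeR called it higher in M27H4 than in M6 controls, with a fitted log2 difference of 7.51 ± 1.17 (SE, adjusted p = 8.49e-04), and higher in 3T3-L1 than in M6 controls, by 8.18 ± 1.22 (adjusted p = 4.95e-04). With the replicate number as a block both calls were lost (edgeR adjusted p = 0.105 and 0.0675). Within the shared codes, with M6 control replicate 2 alone, the differences were 6.62 and 7.35. Without M6 control replicate 2, which held all Abcg2 counts of the M6 controls, the fitted differences were 16.08 and 16.75, values that depend on how the model treats counts of 0. Neither overexpression comparison showed a called difference, with log2 estimates of 0.03 (interval −1.57 to 1.64) in M27H4 and −0.13 (interval −2.09 to 1.84) in 3T3-L1.

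The few Abcg2 counts of M6 came almost entirely from LR codes that M27H4 or 3T3-L1 columns also carried. With the all-M6 code, 3 counts were found over the knockdown columns and 0 over the control columns. The M6 replicate 2 columns with other codes held 117 counts in knockdown cells (1.08 CPM of the column total) and 51 and 121 counts in controls (0.413 and 0.875 CPM). Whether these counts were carried over from other samples was not tested. A floor of 3 counts over the M6 control columns with the all-M6 code, which had 0, is 0.0269 CPM, and it covers counting error only.

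**Figure D4:**
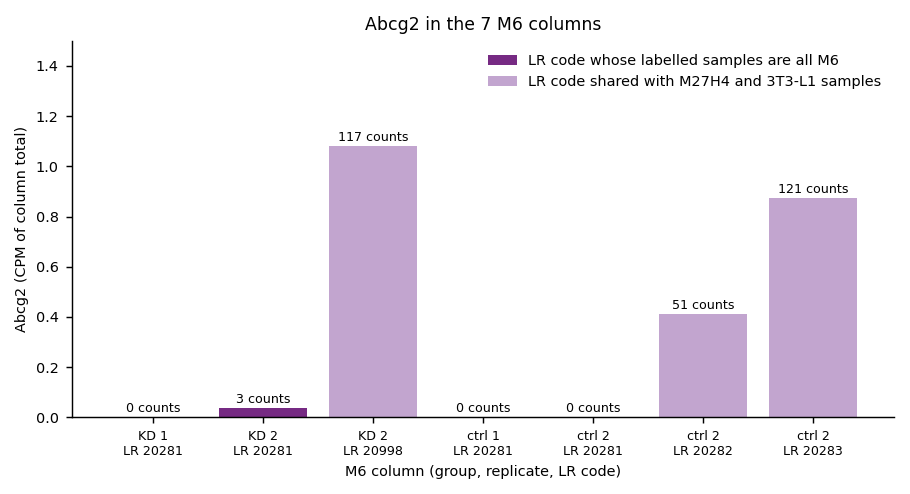
Abcg2 level in the 7 M6 columns (CPM of the column total), with the count written above each bar; dark bars carry the LR code whose labelled samples are all M6, light bars codes shared with other lines. The 4 dark columns hold 0 or 3 counts, and the 3 light columns hold 51 to 121.

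Abca1 (chr4:53030787-53159895, minus strand) loads cholesterol and phospholipid onto apolipoprotein A-I and is a classical target of the oxysterol receptors LXR. In M6 it was at 32 and 12.9 CPM in knockdown cells and at 67 and 20.1 CPM in controls. The knockdown replicate was 0.477 and 0.641 times the control of the same number, but the groups overlapped. The fitted log2 difference of −0.96 turned to 0.25 when control replicate 1 was left out. In M27H4 Abca1 was at 47.1, 28.7 and 23.8 CPM in overexpressing cells and 55.9, 40.4 and 25.3 CPM in controls, and in 3T3-L1 at 18.9 and 25.5 CPM against 16.8 and 20.3 CPM in controls. No comparison of Abca1 passed the test; the lowest estimate between lines was −1.23 for 3T3-L1 against M6 controls (interval −2.52 to 0.06).

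Set side by side per kilobase of exon, the transporters were ordered differently in each line, and the order depended on the gene length used. In M6 knockdown cells Abcc4 (21.8 ± 2.75 CPM per kb, SD) and Abcc1 (18.1 ± 0.222) came before Abcb1b (8.51 ± 0.305) and Abcb1a (6.03 ± 1.65). In M6 controls Abcc4 (10.3 ± 2.89) and Abcc1 (9.52 ± 0.729) led, and by exon length did not differ beyond their spread. Abca1, Abcc5, Abcc3, Abcb1b and Abcb1a followed there between 4.2 and 1.44 CPM per kb. Abcb1b and Abcb1a ranked 3 and 4 of the 10 in knockdown cells, against 6 and 7 in M6 controls.

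In M27H4 Abcc1 led in overexpressing cells (14.6 ± 0.516 CPM per kb) and in controls (17.2 ± 2.3), followed by Abcg2 at 8.15 ± 0.492 and 7.96 ± 1.36. Abcc4, Abcc5 and Abcb1b came next in M27H4 controls, at 6.51, 6.42 and 5.83 CPM per kb, and by exon length were within their spread of each other. In 3T3-L1 Abcg2 (11.5 ± 1.75 in overexpressing cells and 12.6 ± 1.92 in controls), Abcc1 (10.7 ± 0.92 and 10.8 ± 2.69) and Abcc5 (9.97 ± 0.224 and 9.38 ± 1.02) were at about the same level, and Abcb1b followed at 7.75 ± 1.47 and 8.17 ± 2.18. With each gene's length weighted by the transcripts counted, Abcc1 came first in every group, ahead of Abcc4 in M6 and of Abcg2 in 3T3-L1. The exon length of Abcc1 was 15092 bases, while its weighted length was 6382 to 6621 bases. Abcc1 was then at 41.2 and Abcc4 at 24.5 CPM per kb in M6 knockdown cells, and at 21.7 and 11.5 in M6 controls. Abcb1b moved to rank 5 in M6 controls and Abcg2 to rank 3 in 3T3-L1. In M27H4 controls Abcc4 moved to rank 5 at 7.28 CPM per kb, behind Abcc5 at 12.6 and Abcb1b at 11.1. By exon length Abcb4 and Abcc2 were under 0.05 CPM per kb in every group, and with weighted lengths Abcb4 reached 0.111.

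**Figure D5:**
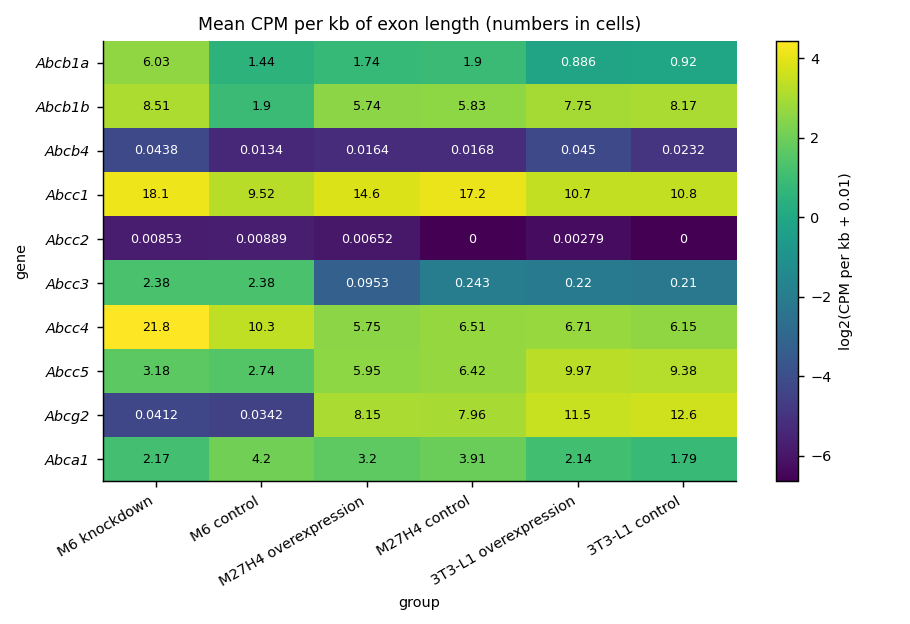
Mean CPM per kb of exon length for the 10 genes (rows) in the 6 groups (columns), with the value in each cell and colour on a log2 scale. Abcg2 is dark in both M6 groups and bright in the other lines, Abcc3 shows the opposite, and Abcb1a and Abcb1b are brighter in M6 knockdown cells (6.03 and 8.51) than in M6 controls (1.44 and 1.9).

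The genes whose mean levels over the 6 groups were most like those of Abcb1a, by the root mean square difference of centred log2 values among 11619 protein-coding genes, were Jam2 (0.301), Zfp422 (0.318) and Col8a1 (0.335). Col8a1, a collagen gene, averaged 264 CPM in M6 knockdown cells and 84.3 CPM in M6 controls, 130 and 139 CPM in the M27H4 overexpressing and control cells, and 42.3 and 41.5 CPM in those of 3T3-L1. Nearest to Abcb1b were Syne1 (0.182), Ak5 (0.204) and Cenpb (0.298). Syne1, which encodes a nuclear envelope protein, averaged 21.2 CPM in M6 knockdown cells and 6.64 CPM in M6 controls, 14.9 and 16.6 CPM in M27H4 overexpressing and control cells, and 21.6 and 18.9 CPM in those of 3T3-L1. Ak5 encodes an adenylate kinase and Cenpb a centromere protein.

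Of 39 other genes within 1 Mb of the Abcb1 cluster on chromosome 5, 17 could be tested in M6 knockdown against control cells. edgeR and DESeq2 called 0 of them, and 1 had an unadjusted p under 0.05. Slc25a40, a mitochondrial carrier gene, differed by 0.18 on the log2 scale, Dbf4, which activates a replication kinase, by 0.01, and Crot, a peroxisomal carnitine acyltransferase gene, by 0.02. Adam22 had an estimate of 1.32 ± 0.75 (SE, edgeR adjusted p = 0.93) and Rundc3b one of 0.88 ± 0.59 (0.988). Gm15731 had the largest estimate, 2.89 ± 1.21 (unadjusted p = 0.0322 and adjusted p = 0.712 in edgeR). It averaged 0.54 CPM in knockdown cells and 0.0684 CPM in controls. Tmem243 was lower, at −0.41 ± 0.21 (edgeR adjusted p = 0.852). Of the 17, 14 had a positive estimate, beside 9314 of the 21237 genes tested. Some of the 14 were near the floor, such as 7330423F06Rik (0.0504 CPM in knockdown cells and 0.0233 CPM in controls) and Gm5106 (0.0512 and 0.0178 CPM). Also among the 14, 7330423F06Rik and Gm17936 lie inside Abcb1b and Abcb4 on the same strand. Whether reads of those transporters were counted for them was not tested. The median over the 17 was 0.13, beside −0.03 over all genes. In M27H4 against M6 controls 0 were higher and 4 lower, or 23.5% called beside 30.2% of all genes, and in 3T3-L1 against M6 controls 1 was higher and 5 lower, or 35.3% beside 39.4%.

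Of 42 other ABC transporter genes, 35 were tested, and 0 were called by edgeR or DESeq2 in the M6 knockdown comparison, with 2 at an unadjusted p under 0.05 and a median log2 difference of 0.1. The smallest p there belonged to Abca3, a lipid transporter of lamellar bodies, at 70 ± 6.51 CPM in knockdown cells and 47.3 ± 8.39 CPM in controls (edgeR adjusted p = 0.644). Between the lines, 11 of the 35 were higher and 6 lower in M27H4 than in M6 controls, 11 higher and 8 lower in 3T3-L1 than in M6, and 8 higher and 6 lower in 3T3-L1 than in M27H4. These are 48.6%, 54.3% and 40% of the list called, beside 30.2%, 39.4% and 36.6% of all genes tested. Abcg1, the other sterol exporter of the oxysterol receptor response, averaged 0.09 ± 0.036 CPM in M27H4 controls and 9.29 ± 1.09 CPM in M6 controls (edgeR adjusted p = 1.06e-06). Tap1, which carries peptides into the endoplasmic reticulum for antigen presentation, averaged 151 ± 11.6 CPM in 3T3-L1 controls and 24.8 ± 0.584 CPM in M6 controls (adjusted p = 8.79e-07).

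Transcription factors known to act on transporter genes did not pass the test in M6: edgeR and DESeq2 called 0 of 33, with 2 at an unadjusted p under 0.05 and a median of −0.08. Of the 33, only 11 had a positive estimate, and Nfe2l2 and Hif1a, given next, were among these. Nfe2l2, the factor of the electrophile response that acts on Abcc1 and on glutathione genes, averaged 100 ± 2.2 CPM in knockdown cells and 67.4 ± 4.96 CPM in controls, and Hif1a, the hypoxia factor, averaged 847 ± 146 CPM in knockdown cells and 470 ± 82.8 CPM in controls. Both had an edgeR adjusted p of 0.597. Genes of glutathione metabolism and conjugation, which make the substrates of the multidrug resistance proteins, had 1 call among 40 (3 by DESeq2). Ephx1, the microsomal epoxide hydrolase, averaged 84.3 ± 15.2 CPM in knockdown cells and 34.4 ± 5.31 CPM in controls, 2.45-fold (edgeR adjusted p = 0.0274), and the median over the list was 0.19. The Ephx1 call was lost with only the M6 groups fitted (0.391) and without knockdown replicate 1 (0.0591), knockdown replicate 2 (0.129) or control replicate 1 (0.157), while its log2 difference stayed between 1.08 and 1.47. edgeR called 0 of 23 solute uptake carriers (median 0.11, 4 at an unadjusted p under 0.05, 1 by DESeq2). It also called 0 of 20 cholesterol efflux and LXR target genes (median −0.06, 2 at an unadjusted p under 0.05, 0 by DESeq2).

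In the overexpression comparisons edgeR and DESeq2 called 0 genes of any of these lists in either line, with 0 at an unadjusted p under 0.05. In the difference between the lines they also called 0, with 1 regulator at an unadjusted p under 0.05. Of the 33 regulators 7 were higher and 4 lower in M27H4 than in M6 controls, and 5 higher and 9 lower in 3T3-L1 than in M6. Of the 40 conjugation genes 14 were higher and 6 lower in M27H4 than in M6 controls, and 17 higher and 5 lower in 3T3-L1 than in M6. Of the 23 uptake carriers 4 were higher and 5 lower in M27H4 than in M6, and 3 higher and 9 lower in 3T3-L1 than in M6. Slco2a1, the prostaglandin transporter, averaged 257 ± 76.2 CPM in M27H4 controls and 0.845 ± 0.198 CPM in 3T3-L1 controls, against 64.4 ± 15.1 CPM in M6 controls (edgeR adjusted p = 1.77e-04 and 5.99e-08). Of the 20 LXR and efflux genes 6 were higher and 4 lower in M27H4 than in M6, and 4 higher and 6 lower in 3T3-L1 than in M6. The shares called were 33.3% and 42.4% of the regulators, 50% and 55% of the conjugation genes, 39.1% and 52.2% of the uptake carriers, and 50% and 50% of the LXR and efflux genes, beside 30.2% and 39.4% of all genes, each with M27H4 against M6 before 3T3-L1 against M6.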

How the data were processed

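Per the labels' protocols, ribosomal RNA was removed from total RNA and strand-specific libraries were made. The submitters' processing notes name cutadapt, HISAT2, StringTie, edgeR and the mm10 (GRCm38) build; versions, annotation release and strand setting are not given in the sources used here. The deposited gene and transcript tables hold expected counts, estimated by StringTie and deposited by the authors as whole numbers. The deposited CPM tables were not used here; each also holds 1 column, with the all-M6 code, that matched no sample.

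Technical replicates were added together, giving 14 biological replicates in 6 groups with 34892461 to 328493417 counts each. filterByExpr, applied by group, retained 21237 genes. A single robust quasi-likelihood model in edgeR 4.0.16 (R 4.3.3) with TMM factors covered all groups, leaving 8 residual degrees of freedom at a biological coefficient of variation of 0.323. Adjustment followed Benjamini and Hochberg over every tested gene, with calls at an adjusted p below 0.05. The SE was derived from each log2 fold change and its F statistic, intervals are 95%, and floors are 3 counts. The fit was checked on simulated counts. Levels per kb use exon length in GENCODE M21.

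The 10 genes and all gene lists were chosen with earlier results of these data known. Abcb1a and Abcb1b were given no test against M6 controls, which entered the choice. Named genes are the 10 transporters, up to 3 called genes with the smallest p of a list and comparison, and the 3 genes nearest in pattern to Abcb1a and to Abcb1b. Slc25a40, Dbf4, Crot, Adam22, Rundc3b, Gm15731, Tmem243, Nfe2l2, Hif1a, Abca3 in M6, Gm5106, Gm17936 and 7330423F06Rik were chosen after their values were seen. Same-numbered M27H4 replicates deviated together from their group means (correlations 0.631, 0.297 and 0.437), so they were taken as pairs in the blocked alternative. They also carried the same LR codes. DESeq2 1.42.0, RLE factors, no filter, fewer groups, columns of single LR codes and left-out replicates were further alternatives; the fit on the all-M6 code for comparisons between lines, the pairwise counts in M27H4 and the transcript-weighted Abcb1 ratio were chosen after seeing the data. Promoter windows are RefSeq's on GRCm38.p6, found for 8 of the 10 genes.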

Additional observations from a re-analysis of the deposited data

How the results depend on the processing

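The difference in Abcb1a and Abcb1b between M6 knockdown and control cells, which is a description, ran from 1.77 to 2.47 for Abcb1a and from 2.13 to 2.20 for Abcb1b on the log2 scale when single replicates were left out. The count of genes called moved far more. In M6 knockdown against control it was 29, and 233 with DESeq2, 64 with no filter on low counts, 0 with only the 2 M6 groups in the fit, 293 with the replicate block and 6 to 60 without single replicates. In M27H4 overexpression it was 2, and 6 with DESeq2, 1 with the replicate block, 1 with only its own groups and 1 to 2 without single replicates. In 3T3-L1 overexpression it was 1, and 12 with DESeq2, 2 with no filter, 0 with the replicate block, 4 with only its own groups and 0 to 5 without single replicates. For the difference between the overexpression effects it was 1, and 11 with DESeq2, 0 with RLE factors, 0 with the replicate block, 0 with only its own groups and 0 to 5 without single replicates.

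Same-numbered M6 samples correlated at 0.658 and 3T3-L1 samples at 0.396, over 2 pairs each, and these correlations alone cannot show a pairing. By the column names, same-numbered overexpressing and control samples of 3T3-L1, like those of M27H4, carried the same LR codes. The main fit did not use this match, whereas the replicate block did. Between lines, replicates of the same number do not in general share LR codes. There the block gave 4190 calls instead of 6420 for M27H4 against M6 controls. The transporters called under that block were 2 instead of 5 for M27H4 against M6, 2 instead of 4 for 3T3-L1 against M6, and 1 instead of 3 for 3T3-L1 against M27H4. For M27H4 against M6 it lost Abcc3 (edgeR adjusted p = 0.051), Abcc4 (0.201) and Abcg2 (0.105). For 3T3-L1 it lost Abcc4 (0.0818) and Abcg2 (0.0675) against M6, and Abcc1 (0.0981) and Abcc5 (0.217) against M27H4. With only the groups compared they were 3 for M27H4 against M6 and 5 for 3T3-L1 against M27H4, and leaving out single replicates gave 1 to 3 for 3T3-L1 against M27H4; without 3T3-L1 control replicate 2 the 1 called gene was Abcb1b (adjusted p = 0.0316), none of the 3.

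Small uncalled differences turned sign. In M27H4 overexpression, leaving out single replicates gave ranges of −0.29 to 0.01 for Abcb1a, −0.14 to 0.09 for Abcb1b, −1.79 to 0.04 for Abcc3, −0.18 to 0.03 for Abcc5, −0.10 to 0.12 for Abcg2, −0.62 to 0.01 for Abca1. Leaving out a single sample breaks its pair, and within pairs Abcb1a and Abca1 were lower in all 3. Abcb1b was 0.01 there with only its own groups. In 3T3-L1 overexpression the ranges were −0.27 to 0.19 for Abcb1a, −0.34 to 0.23 for Abcb1b, −0.26 to 0.27 for Abcc1, −0.38 to 0.40 for Abcc3, −0.01 to 0.25 for Abcc4, −0.02 to 0.19 for Abcc5, −0.29 to 0.04 for Abcg2, and Abcc1 was 0.01 with the replicate block. There too a left-out sample breaks a match in LR code. Between same-numbered 3T3-L1 samples Abcg2 was 0.915 and 0.916 times the control and Abcc4 1.05 and 1.14 times. The other genes listed for 3T3-L1 did not keep to one side of the control. Between lines the ranges were −0.72 to 1.01 for Abca1 in M27H4 control against M6 control; −0.14 to 0.39 for Abcc1 in 3T3-L1 control against M6 control; −0.62 to 1.20 for Abcc3, −0.20 to 0.06 for Abcc4 in 3T3-L1 control against M27H4 control. Abca1 was 0.27 in M27H4 against M6 controls with the replicate block. The cause of these changes was not tested. The sum of Abcb1a and Abcb1b, most of it Abcb1b, was 0.30 higher in 3T3-L1 than in M27H4 controls, whereas Abcb1a alone was lower (−1.04). Depth limits Abcb4, Abcc2 and, in M6, Abcg2.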
